A study of Rattus norvegicus with 6 samples.

Results

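The Cyp4a hydroxylases, the epoxygenases and the epoxide hydrolases are enzymes that make or break down the cytochrome P450 products of arachidonic acid. Their transcripts were followed in rat kidney with the 12 probe sets of an Affymetrix Rat Genome 230 2.0 array whose platform symbol was Cyp4a1, Cyp4a2, Cyp4a3, Cyp4a8, Cyp2c23, Cyp2j3, Cyp2j4, Cyp2c11, Ephx1 or Ephx2. All 10 genes had a probe set, out of 14863 gene symbols on the array. Cyp4a2 had none of its own and was measured by 1 probe set shared with Cyp4a3. Male Dahl salt-sensitive (S) rats were compared with male rats of 1 congenic strain. These carry a chromosome 9 segment of another strain, written R in the congenic name, on the Dahl S background. By the study's title, the segment holds a blood pressure locus. Both strains ate a diet with 2% salt after weaning at 30 days and were killed at 53 days. RNA from 2 rats made 1 pool and 1 array, so 6 rats gave 3 arrays per strain, and each cage held 1 rat of either strain. None of the 10 genes lies on chromosome 9 in the rat assembly GRCr8.

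Cytochrome P450 enzymes of the Cyp4a group add a hydroxyl group to the far (omega) end of arachidonic acid, which gives 20-HETE, a lipid that constricts renal arterioles and inhibits sodium reabsorption in the tubule. Epoxygenases of the Cyp2c and Cyp2j groups make epoxyeicosatrienoic acids (EETs) from the same fatty acid, and EETs relax vessels and also inhibit tubular sodium transport. Soluble epoxide hydrolase, the product of Ephx2, turns EETs into less active diols. The balance of these products has long been studied in salt-sensitive hypertension, including in the Dahl rat.

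No member passed limma's test of the strains, adjusted over all probe sets. All 12 probe sets passed the filter on dim signals (a mean over the 6 arrays of at least 25.6), and 0 of them had an adjusted p under 0.05, as did 0% of the 18625 probe sets tested. Without adjustment, 2 of the 12 had a p under 0.05, 1 higher (Cyp4a8, in 1 of its 2 probe sets) and 1 lower (Ephx1) in congenic kidneys, beside 6.61% of all tested (3.09% higher and 3.53% lower). The same 2 were the probe sets whose groups did not overlap, beside 12.5% of all tested (5.74% higher and 6.79% lower). Of the 12 log2 fold changes (congenic over S, on the log2 of signal + 16), 9 were negative and the median was -0.067, where 51.2% of all tested probe sets were negative and their median was -0.0034. The 95% interval of the fold change of signal + 16 lay within 1.5-fold in either direction for 11 of the 12, all but Cyp2c11. It lay within 1.2-fold for 5. Over all tested probe sets these shares were 92.7% and 31.2%. With signal + 1, the log2 intervals of the 2 Cyp2j3 probe sets also passed 1.5-fold, at -0.66 to 0.40 and -0.73 to 0.060.

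**Figure D1:**
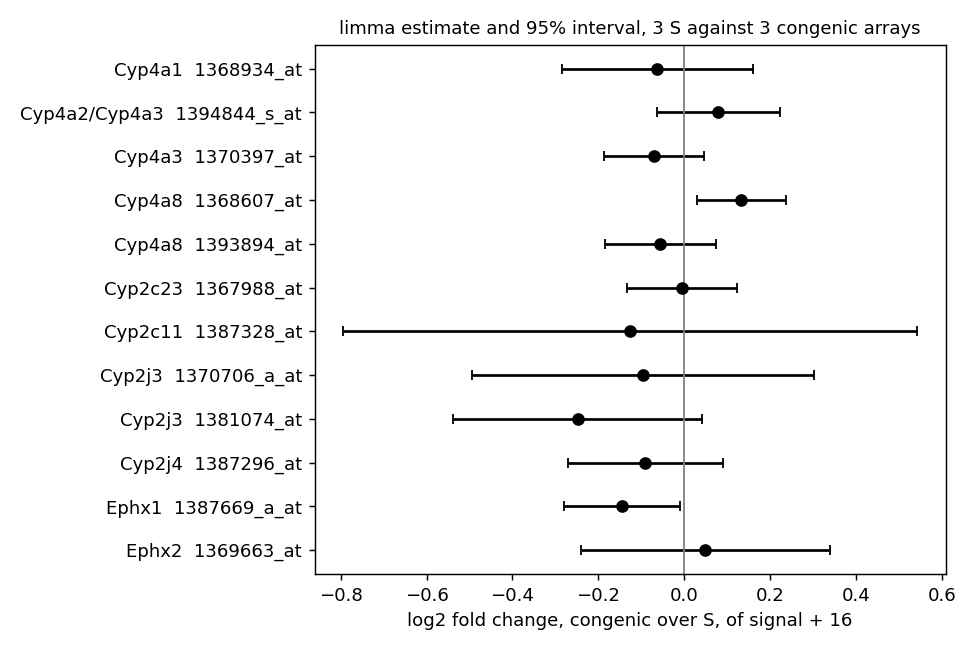
limma log2 fold change of signal + 16 (x axis, congenic over S) with its 95% interval for each of the 12 probe sets (y axis), from 3 S and 3 congenic arrays. The intervals of 10 probe sets include 0, and that of Cyp2c11 is the widest, from -0.79 to 0.54.

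The 6 arrays had median signals of 42.9 to 46.0. Markers of kidney segments were present on every array, such as the thick ascending limb gene Umod at 6576 to 7010 and the proximal tubule phosphate transporter Slc34a1 at 5312 to 5960. Of 11 hepatocyte markers measured, 11 were highest on congenic replicate 1, where their summed signal was 11599 against 457 to 539 on the other 5 arrays. All 5 adrenal cortex markers measured were highest on congenic replicate 3, with a sum of 5506 against 128 to 142. For actin, the signal of 3' probes over that of 5' probes, a ratio that increases as RNA degrades, was 9.42 on S replicate 1 and 6.15 to 8.13 on the others. The pools hold whole-kidney RNA, in which fewer cells of a type and less RNA per cell cannot be told apart.

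Among the hydroxylases, Cyp4a2 and Cyp4a3 are close copies in 1 cluster on chromosome 5. The 250 bases upstream of their annotated starts are shown with those of Cyp4a8 from the same cluster, to show how alike these flanks are. The flanks lie outside the transcripts that the probe sets read, and the likeness of the transcripts was not tested. The sequences are RefSeq's, from build GRCr8, minus strand, 5' to 3', with AGGTCA in capitals. That hexamer is the half-site of PPAR alpha, the known inducer of Cyp4a genes, and of other nuclear receptors.
Cyp4a2, chr5:134170909-134171158: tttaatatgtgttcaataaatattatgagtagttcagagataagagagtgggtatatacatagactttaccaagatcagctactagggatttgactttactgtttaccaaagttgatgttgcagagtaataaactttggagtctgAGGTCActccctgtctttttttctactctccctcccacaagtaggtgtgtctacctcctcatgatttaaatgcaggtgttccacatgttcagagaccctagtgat
Cyp4a3, chr5:134352237-134352486: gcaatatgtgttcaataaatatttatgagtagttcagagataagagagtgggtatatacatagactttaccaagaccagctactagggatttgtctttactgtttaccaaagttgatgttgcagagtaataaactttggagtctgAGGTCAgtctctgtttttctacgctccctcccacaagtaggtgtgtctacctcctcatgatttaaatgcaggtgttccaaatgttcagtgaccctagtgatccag
Cyp4a8, chr5:133970227-133970476: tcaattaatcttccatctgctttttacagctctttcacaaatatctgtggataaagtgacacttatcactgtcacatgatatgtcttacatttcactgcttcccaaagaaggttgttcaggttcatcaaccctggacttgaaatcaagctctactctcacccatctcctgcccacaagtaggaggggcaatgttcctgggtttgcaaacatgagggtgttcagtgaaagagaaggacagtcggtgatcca
Cyp4a2 and Cyp4a3 were identical at 236 of 255 aligned positions (92.5%), whereas Cyp4a2 and Cyp4a8 matched at 57.6% and Cyp4a3 and Cyp4a8 at 59.3%. Searched on both strands, AGGTCA stood at the same place in Cyp4a2 and Cyp4a3, its first base 105 bases before the start, and did not occur in the Cyp4a8 window. Sequences were at hand for 8 member genes with 9 starts. The hexamer lay in 4 of the 9 windows (Cyp4a2, Cyp4a3, Cyp2c11 and 1 of 2 of Ephx1), of which those of Cyp4a2 and Cyp4a3 are the near copies above, and in 14.1% of all 33469 windows of this length. A match is a description of the letters and not a site of binding.

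The shared Cyp4a2/Cyp4a3 probe set had signals of 8883, 8579.6 and 7485 in the S pools and 9041, 8321 and 8949 in the congenic pools. The groups overlapped, with S replicate 3 the lowest array. Its mean signal was above that of 99.98% of probe sets, near the top of the array's range. The means were 8316 ± 735 in S and 8770.4 ± 392 in congenic pools (SD, n = 3 each). The difference on the log2 scale was 0.080 with an SE of 0.065 (limma adjusted p = 0.833). Without S replicate 3 the log2 fold change was 0.0057.

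The probe set with Cyp4a3 as its only platform symbol measured 2970.1 ± 163 in S and 2826 ± 49.7 in congenic pools. Its values were 3089.7, 3037 and 2784 against 2880.1, 2782 and 2816, so the groups overlapped through S replicate 3. The log2 fold change was -0.070 (95% interval -0.19 to 0.047, limma adjusted p = 0.822). Whether this probe set also reads Cyp4a2 was not tested. The shared probe set and this one had opposite signs. Within each array, the log2 difference between them (Cyp4a3 less shared) was -1.52, -1.49 and -1.42 in S and -1.65, -1.58 and -1.66 in congenic pools, without overlap. Among 4628 pairs of tested probe sets that share a gene, a comparison chosen after these values were seen, 11.5% had groups without overlap and 6.55% an unadjusted p under 0.05. In limma's test over those pairs the log2 fold changes of the Cyp4a3 and shared probe sets differed by -0.15 (SE 0.11, adjusted p = 0.835).

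Cyp4a8, a kidney-expressed hydroxylase of the same cluster, had the member probe set with the smallest p. It read 3577, 3799 and 3868 in S and 4140.5, 4060.0 and 4131 in congenic pools. All 3 congenic arrays were above all 3 S arrays. The means were 3748 ± 152 and 4110.5 ± 44.0 (SD, n = 3 each). On the log2 scale they differed by 0.13 (SE 0.047), or by 9.68% of signal + 16 with a 95% interval of 2.07% to 17.9%. Its unadjusted limma p was 0.0169 and its adjusted p 0.742. Without each array in turn the log2 fold change was 0.10 to 0.16.

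The second Cyp4a8 probe set read 3072, 2986 and 3317 in S and 2839, 3018 and 3164 in congenic pools. The groups overlapped and the log2 fold change was -0.055 (SE 0.058, limma adjusted p = 0.869). It was -0.012 without S replicate 3 and -0.015 without congenic replicate 1. The probe sets of Cyp4a8 thus differed in sign, by 0.19 on the log2 scale (SE 0.12, 95% interval -0.069 to 0.45, limma adjusted p = 0.814 over the pairs). Their within-array difference was 0.22, 0.35 and 0.22 in S and 0.54, 0.43 and 0.38 in congenic pools, again without overlap.

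Cyp4a1, the hydroxylase best known from liver and highly active on arachidonic acid, read 1237, 1076 and 959 in S and 1174, 988 and 963 in congenic pools. Replicate 1 was the highest array of each strain, and the groups overlapped throughout. Congenic less S, the log2 difference was -0.063 (95% interval -0.29 to 0.16, limma adjusted p = 0.919), and it was 0.030 without S replicate 1. On congenic replicate 1, the array with hepatocyte transcripts, Cyp4a1 was second to S replicate 1.

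**Figure D2:**
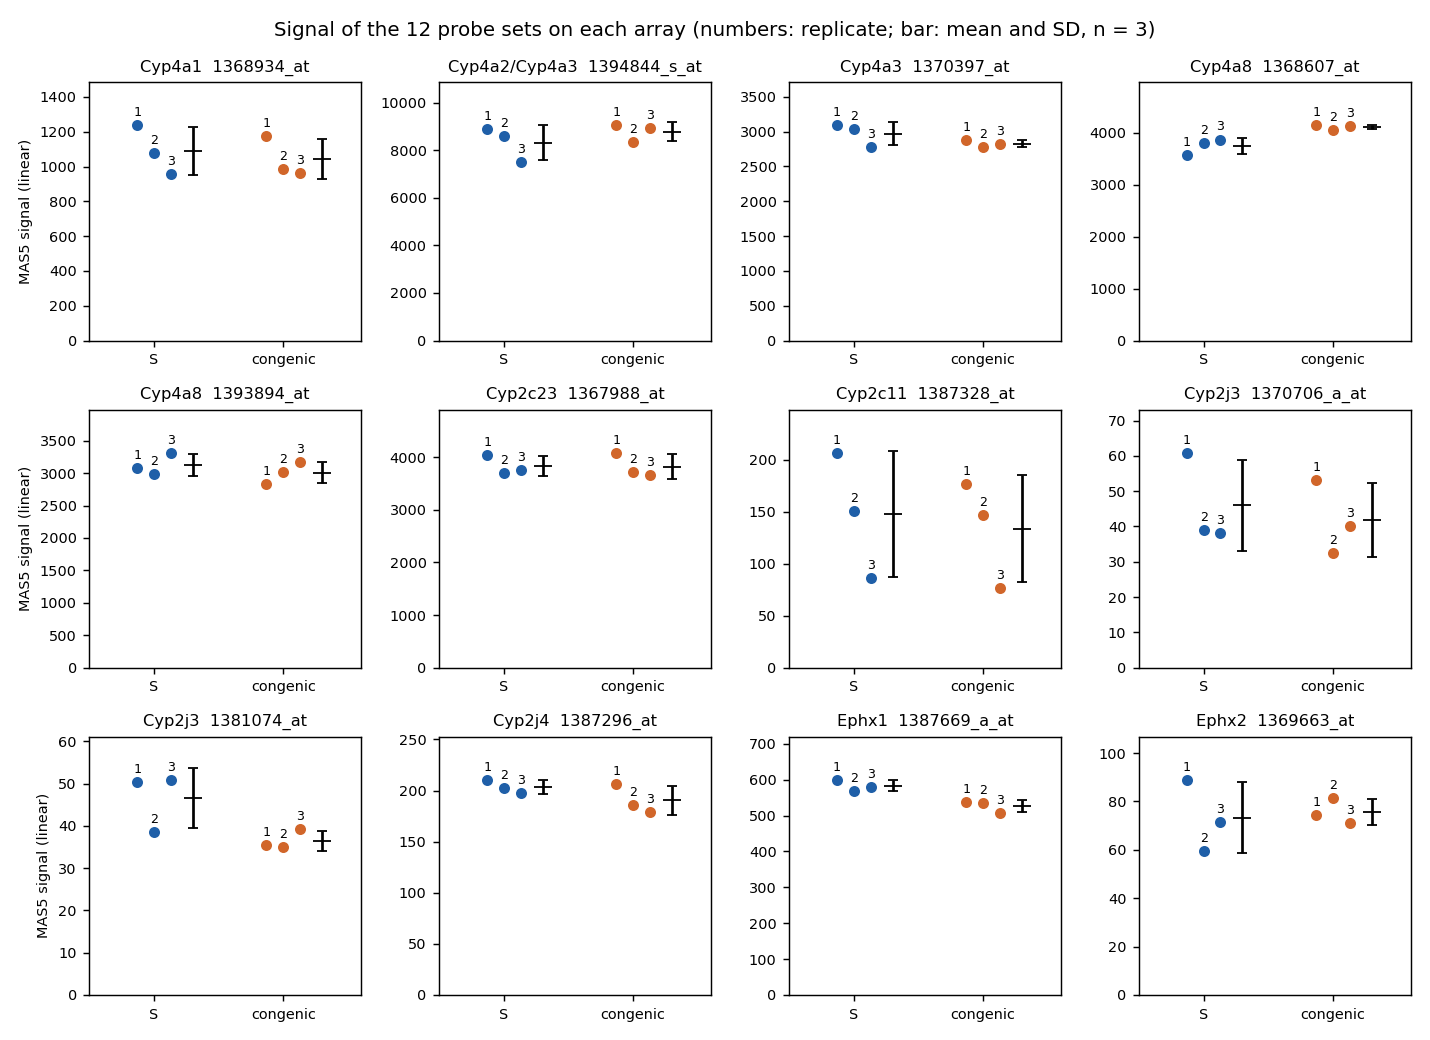
MAS5 signal on a linear axis from 0 (y axis) of each of the 12 probe sets by strain (x axis), with replicate numbers above the points and the mean ± SD (n = 3) beside them. Only 1 Cyp4a8 probe set and Ephx1 have groups that do not overlap, and Cyp2c11 runs from 76.6 to 207 within the 6 arrays.

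Of the epoxygenases, Cyp2c23 is held to be the main EET-forming enzyme of rat kidney. It read 4043, 3699 and 3755 in S and 4089, 3710.0 and 3666 in congenic pools. The values of the strains interleaved, and the means were 3832 ± 184 and 3822 ± 233 (SD, n = 3 each). Its log2 fold change was -0.0046 (SE 0.057), and its 95% interval ran from 8.77% below to 8.91% above equality on the scale of signal + 16 (limma adjusted p = 0.990). The sign turned when S replicate 1 (0.034), the congenic array 2 (0.016) or the congenic array 3 (0.024) was left out.

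Cyp2c11, a male-predominant epoxygenase and steroid hydroxylase known best from liver, varied more between arrays of a strain than any other member. It read 207, 150.3 and 85.8 in S and 177, 146 and 76.6 in congenic pools. The highest array was 2.7 times the lowest, replicate 3 was the lowest and replicate 1 the highest in each strain, and the groups overlapped. Its residual SD of 0.56 (log2) was larger than that of 99.8% of the 1000 tested probe sets nearest to it in level. The log2 fold change was accordingly imprecise, at -0.13 (SE 0.30, 95% interval -0.79 to 0.54, limma adjusted p = 0.949). It was 0.13 without S replicate 1, 0.19 without congenic replicate 3 and -0.43 without S replicate 3.

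Several other Cyp2c genes of liver set congenic replicate 1 apart, and Cyp2c11 did not. Cyp2c7 read 401 on that array and 4.89 to 15.7 on the other 5, Cyp2c6v1 245 against 0.247 to 1.37, and Cyp2c13 135 against 4.03 to 8.59. Cyp2c12, a female-predominant gene, did not stand out there, at 0.525 against 0.490 to 11.5. Albumin (Alb) read 6683 against 19.3 to 56.7. Cyp2c11 at 177 was second there to S replicate 1, and Cyp2c23 at 4089 was 1.01 times the next array. Without congenic replicates 1 and 3, which leaves 1 congenic array and a spread taken from the S arrays, the log2 fold change of Cyp2c11 was 0.062 and that of the first Cyp4a8 probe set 0.12, given as values only.

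**Figure D3:**
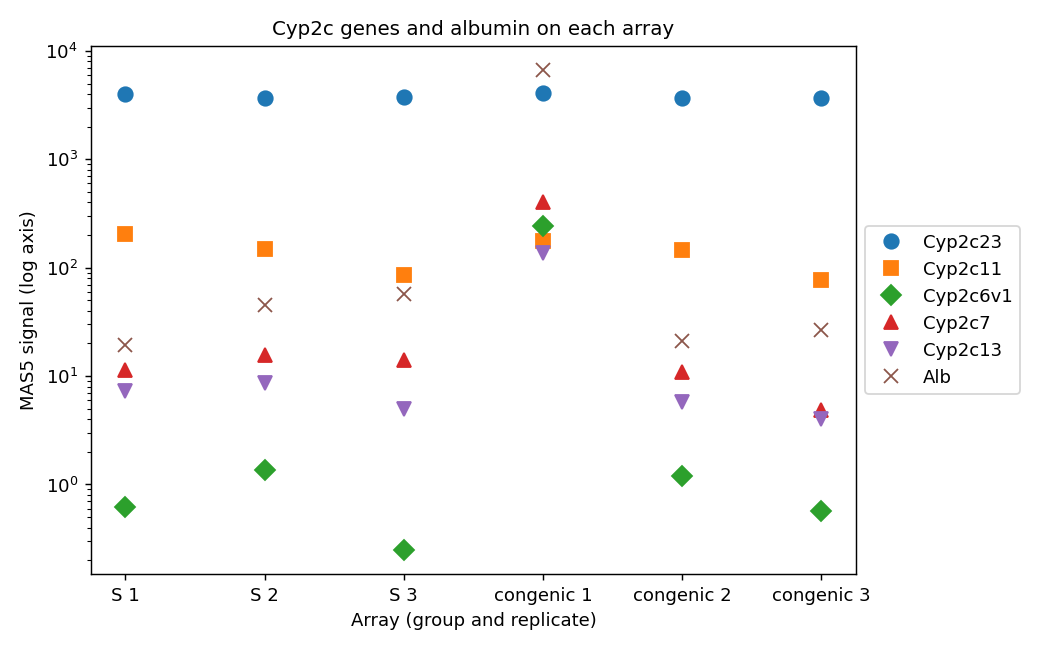
MAS5 signal on a log axis (y axis) of Cyp2c23, Cyp2c11, other Cyp2c genes and albumin (Alb) on each array (x axis). Cyp2c7, Cyp2c6v1, Cyp2c13 and Alb stand out on congenic replicate 1. On that array Cyp2c11 (177) lies within its range on the others (76.6 to 207), and Cyp2c23 (4089) is 1.01 times the next array. Levels of different genes are not comparable on this axis, since each comes from its own probes.

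Of the Cyp2j epoxygenases, which act on arachidonic acid and other fatty acids, Cyp2j4 read 211, 202 and 197 in S and 206, 186 and 179 in congenic pools, with overlapping groups and a log2 difference of -0.091 (SE 0.081, limma adjusted p = 0.846). Cyp2j3 had 2 probe sets close to the middle of the array's range of signals. The first read 60.9, 39.0 and 38.3 in S and 53.2, 32.5 and 40.1 in congenic pools, a log2 difference of -0.096 (SE 0.18, limma adjusted p = 0.935) that was 0.069 without S replicate 1 and 0.024 without congenic replicate 2. The second read 50.4, 38.5 and 50.9 in S and 35.4, 34.9 and 39.2 in congenic pools. Its groups overlapped only through S replicate 2. The log2 fold change of -0.25 (SE 0.13, 95% interval -0.54 to 0.042, limma adjusted p = 0.785) was the lowest among the members. All 5 epoxygenase probe sets had a negative log2 fold change, with a median of -0.096, which was 0.034 without S replicate 1 and -0.23 without congenic replicate 1.

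Ephx1, the microsomal epoxide hydrolase that acts mainly on foreign compounds and slowly on EETs, read 600.3, 569.6 and 580.4 in S and 538, 534 and 507 in congenic pools. All 3 congenic arrays were below all 3 S arrays. The means were 583 ± 15.6 and 526 ± 17.2 (SD, n = 3 each), and the log2 difference was -0.14 (SE 0.061, 95% interval -0.28 to -0.0098). The unadjusted limma p was 0.0379 and the adjusted p 0.750. Without each array in turn the log2 fold change was -0.16 to -0.12, and the unadjusted limma p stayed under 0.05 only without congenic replicate 1.

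Ephx2, the soluble hydrolase of EETs, read 89.0, 59.7 and 71.4 in S and 74.4, 81.5 and 71.2 in congenic pools. The S arrays spanned the congenic ones, so the strains were not separated. Its log2 fold change was 0.049 (SE 0.13), with a 95% interval from 15.4% below to 26.5% above equality on the scale of signal + 16 (limma adjusted p = 0.953). It was -0.065 without S replicate 2.

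Across the members, S replicate 1 was the highest array for 7 of the 12 probe sets and congenic replicate 1 for 3. How often each array was highest over all tested probe sets was not counted, so this is not read as a trait of the members. Of the 12 proximal tubule markers measured, 7 were also highest on S replicate 1, and their summed signal was 38185 there, 34299 and 35696 on the other S arrays and 35561 to 36480 on the congenic arrays. Most Cyp4a and Cyp2c enzymes of the kidney are made in the proximal tubule, and the part of these markers in the values above was not tested. The summed signal of 7 markers of other nephron segments was 14783 to 15050 in S and 15670 to 15932 in congenic pools. Those sums rest mainly on Umod, Slc12a1 and Aqp2, and by gene 4 of the 7 were on average higher in congenic pools (median log2 difference 0.026). The array profile most like that of Cyp2c11 belonged to Qprt, an enzyme of NAD synthesis (Pearson r = 0.997 over 6 arrays), and that most like Cyp4a1 to Sema4a (r = 0.995). Likeness of this degree is usual here, since the median over all tested probe sets of the best match was 0.993. For Cyp4a8 the closest gene was Nop56 (r = 0.991), for Cyp4a3 Dnajc24 (0.993), for Cyp2c23 Tirap (0.992), for Cyp2j4 Crim1 (0.993), for Cyp2j3 Aif1 (0.994), for Ephx1 Ttc33 (0.995) and for Ephx2 Alkbh5 (0.983).

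The rest of the pathway was read from 69 symbols in 7 lists, of which 49 genes were measured and 33 tested. None passed limma's adjusted threshold in either direction (0 higher, 0 lower). With 1 probe set a gene, 0 had an unadjusted p under 0.05 with a higher and 4 with a lower congenic level, beside 3.09% and 3.53% of all tested probe sets. The lowest of them was Ppargc1a, a coactivator of PPAR alpha, at 565 ± 42.5 in S and 477 ± 22.6 in congenic pools (SD, n = 3 each). Its values of 588, 516 and 590.1 in S and 457, 474 and 501.5 in congenic pools did not overlap. The log2 fold change was -0.23 (SE 0.073, limma adjusted p = 0.710), and a second probe set had -0.22. The rest of the 4 were the cyclooxygenase Ptgs1 at -0.23, the lung-type monooxygenase Cyp4b1 at -0.22 and Cyb5r3, which reduces cytochrome b5, at -0.16. In the other direction, a second probe set of Cyb5b, a form of cytochrome b5, had 0.21 (limma adjusted p = 0.735) with groups that did not overlap. Its means were 314 ± 15.7 in S and 366 ± 18.5 in congenic pools (SD, n = 3 each). The probe set of Cyb5b in the list had 0.025. Ncor1, of the PPAR alpha list, had -0.44 in 1 further probe set, with overlapping groups (SE 0.19, limma adjusted p = 0.750). It had -0.19 in another and -0.012 in that of the list.

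Among other Cyp4 monooxygenases, 5 were tested with a median of -0.11, and after Cyp4b1 the smallest p was that of Cyp4f1, at 1649.9 ± 211 in S and 1466 ± 139 in congenic pools. The 5 electron donors, which pass electrons to microsomal P450 enzymes, had a median of 0.015. After Cyb5r3 came Pgrmc1 at 0.12, and the P450 reductase Por itself had -0.095. The 7 phospholipases A2, which free arachidonic acid from membranes, had a median of -0.046, led by Pla2g15 at 0.12 and Pnpla8 at -0.089. Other tested probe sets of Pnpla8 had -0.088 and 0.055. The 4 cyclooxygenases and lipoxygenases had a median of -0.043, with Ptgs2 at -0.22 after Ptgs1. The 3 receptors and channels of 20-HETE and EETs had a median of 0.026, with Kcnmb4 at -0.065 and Kcnma1 at 0.075. Below the filter, 1 more Kcnma1 probe set read 8.02 to 14.6 in S and 1.33 to 5.67 in congenic pools. Its groups did not overlap, beside 9.78% of the 12417 probe sets below the filter. Another Kcnma1 probe set read 1.70 to 8.41 in S and 0.924 to 12.3 in congenic pools. Whether these signals stand above background was not tested. The 6 genes around PPAR alpha had a median of 0.061, with Med1 at 0.15 (-0.056 in another tested probe set) after Ppargc1a. That median includes Fabp1, which reached the filter's signal on congenic replicate 1 alone, and it was 0.0044 without that array. The 3 tested genes of the remaining Cyp2c and Cyp2j list, Cyp2c6v1, Cyp2c7 and Cyp2c13, likewise reached it on that array alone, so that their fold changes restate 1 array and are not read as a difference between strains. The medians of 5 of the 7 lists changed sign when single arrays were left out. The median of the receptors and channels ran from -0.079 to 0.085, that of the cyclooxygenases and lipoxygenases from -0.18 to 0.056, that of the electron donors from -0.032 to 0.023 and that of the phospholipases from -0.075 to 0.021, and that of the Cyp2c and Cyp2j list was -0.13 without congenic replicate 1.

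**Figure D4:**
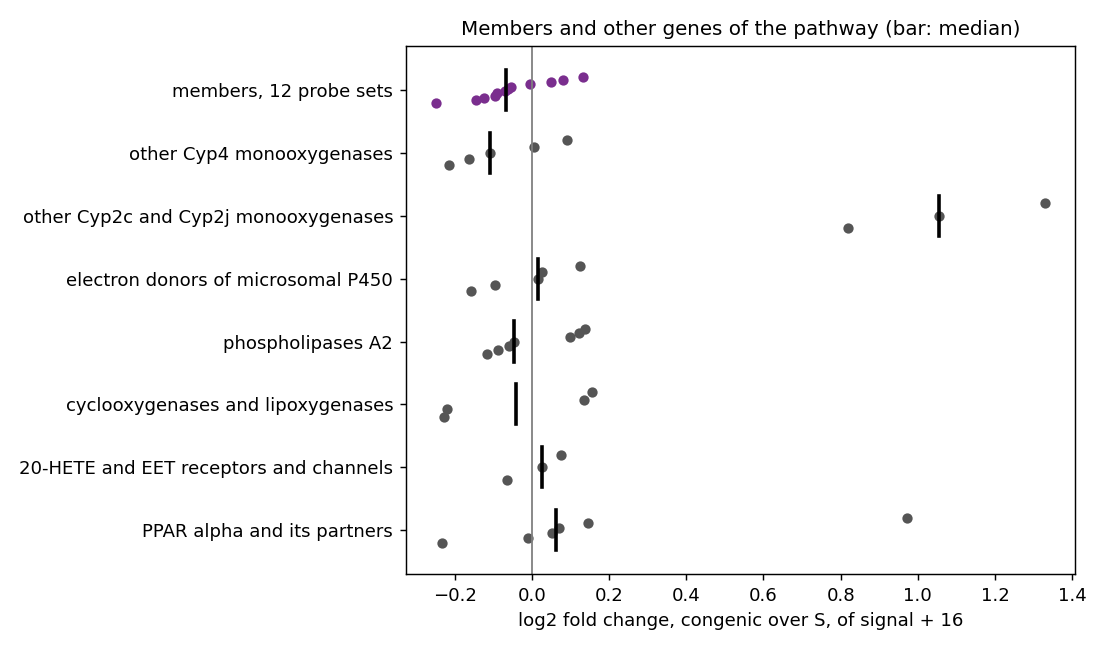
log2 fold change of signal + 16 (x axis, congenic over S) of the 12 member probe sets and of the tested genes of 7 other lists (y axis), 1 point each, with the median of each list as a bar. The 3 points near or above 0.8 in the Cyp2c and Cyp2j list, and Fabp1 at 0.97 in the PPAR alpha list, are genes high on congenic replicate 1 alone.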

How the data were processed

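Deposited intensities were linear MAS5 signals (tool per the submitters' processing notes; scale from the values). MAS5 combines perfect match and mismatch probes after background correction and brings arrays to one target, so a shift common to most transcripts cannot be seen. The version, target and detection calls are not given in the sources used here. Gene names are the platform's, brought up to date by gene ID with RefSeq's GRCr8 table.

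log2(signal + 16), which understates changes of dim probe sets, entered limma 3.58.1 (R 4.3.3; eBayes with intensity trend) for 18625 probe sets. The 57 controls and 12417 probe sets with a mean below the 40th percentile were left out. p-values are 2-sided with Benjamini-Hochberg adjustment over all tested probe sets and a threshold of 0.05. With 3 arrays a group, the smallest p of an exact permutation test is 0.1. The fit was tested on simulated data. With 3 arrays per group, their number limits the precision, and the median SE was 0.105. Pools were of different rats.

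Every member probe set is described. From each other list, 1 probe set a gene (the highest mean), the 2 genes with the smallest p are named. For each member, the named gene with the highest Pearson correlation over the arrays was taken as most like it. Members, lists and alternatives were chosen with earlier results of these data known. The sample titles tie no array to a cage. Same-numbered arrays did not deviate together across probe sets (correlations 0.037, 0.014 and 0.021), so no pairing was used. Taken over all tested probe sets, these correlations do not exclude a pairing in single ones. Alternatives were other pseudocounts (1 and 64), filters, normalizations and eBayes settings, the replicate number as a block, and leaving out arrays.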

Additional observations from a re-analysis of the deposited data

How the results depend on the processing

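Across the alternatives, 189 log2 fold changes of members were computed. Their sign was that of the reported value in 179, and 0 had an adjusted p under 0.05. Other filters, other eBayes settings and the block leave the log2 fold change as it is, so there the sign could not turn. The 10 that turned were Cyp4a1 (0.030), Cyp2c23 (0.034), Cyp2j3 (0.069, first probe set) and Cyp2c11 (0.13) without S replicate 1, Ephx2 without S replicate 2 (-0.065), Cyp2c23 (0.016) and Cyp2j3 (0.024) without congenic replicate 2, Cyp2c23 (0.024) and Cyp2c11 (0.19) without congenic replicate 3, and Cyp2c11 without congenic replicates 1 and 3 (0.062). These have fewer arrays, and the cause was not tested further. With single arrays left out, Cyp4a1 ranged from -0.15 to 0.030, Cyp2c23 from -0.054 to 0.034, the first Cyp2j3 probe set from -0.23 to 0.069, Cyp2c11 from -0.43 to 0.19 and Ephx2 from -0.065 to 0.17. The number of all probe sets called ranged from 0 to 1 with single arrays left out, the 1 being without congenic replicate 2, and was 0 otherwise.

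With the replicate block, which the correlations do not support as a pairing, 0 member probe sets were called and the 95% interval of Cyp2c11 was -0.33 to 0.082 in limma. The block changed no call. The members at an unadjusted p under 0.05, Cyp4a8 and Ephx1 as reported, were Ephx1 alone with quantile normalization, the second Cyp2j3 probe set alone with eBayes without trend, and Cyp4a8 alone with the block or without congenic replicate 2 or 3. They were Cyp4a8 and Cyp2j3 without S replicate 2, Cyp4a8 and Cyp4a3 without S replicate 3, and none without S replicate 1 or without congenic replicates 1 and 3 (1 congenic array left). Signal over background is unknown for the dim Cyp2j3 probe sets, since detection calls were not used here.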

Other observations

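Of the pathway genes measured, 16 lay below the filter and so were left out of the comparison, and 4 of them had groups that did not overlap, beside 9.78% of the 12417 probe sets below the filter. These genes were chosen after their values were seen. Kcnmb1, the smooth muscle subunit of the large-conductance potassium channel that 20-HETE closes and EETs open, read 10.8 to 13.4 on the S arrays and 2.83 to 4.28 on the congenic arrays. With no filter its log2 fold change on signal + 16 was -0.54 (SE 0.11) with an adjusted limma p of 0.706, and it was lower on each congenic array. Trpc6, a calcium-permeable channel of podocytes and smooth muscle, read 24.6 to 28.2 in S and 20.3 to 22.7 in congenic pools, a log2 fold change of -0.20 (adjusted p = 0.862). Ppara itself read 1.32 to 1.71 and 0.629 to 0.985, and Cyp2c12, a female-predominant liver enzyme, 0.963 to 11.5 and 0.490 to 0.647. Whether signals this low stand above background was not tested.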
